A study of Mus musculus with 47 samples.

Results

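The effect of ultraviolet radiation (UVR) on liver transcripts was examined here in mice that all wore a sunscreen containing zinc oxide (ZnO) nanoparticles. All 11 liver arrays from mice treated with that sunscreen were used, of 47 arrays in the series, 5 from mice that also received UVR (ZnO + UVR) and 6 from mice that did not (ZnO-UVR). Members were chosen by sunscreen and UVR label alone, and no measured value entered the choice. No transcript out of 9815 tested differed between ZnO + UVR and ZnO-UVR after adjustment for multiple tests. In circadian clock genes, 2 ZnO-UVR mice stood apart from the other 9. Without them the median size of the difference over 12 clock genes was 0.25 on the log2 scale, against 0.53 with all 11. These mice were picked after the clock values were seen, so a smaller difference without them was built in.

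Every mouse was a female of the hairless, immune-competent SKH:QS strain, entered as a young adult, and was fitted with an Elizabethan collar at each session to limit ingestion. ZnO + UVR mice were given the ZnO sunscreen on the skin and then 29 kJ/m2 of UVR, mostly UVA with some UVB, at each of 30 treatments over 36 weeks. ZnO-UVR mice were given the same sunscreen on the same schedule and no UVR. The other 6 groups had no sunscreen (Control), a product of TiO2 nanoparticles with organic filters (TiO2) or a product of organic filters alone (Organic), each with and without UVR, in 6 mice a group. Several ZnO + UVR mice died or were killed before the end of the study, so the 5 arrays came from survivors. The labels describe single housing, whereas the study's methods describe 1 cage for each group. If the groups were caged together, cage and treatment cannot be told apart. The hour at which livers were taken is not given in the sources used here.

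UVR is absorbed in the skin and does not reach the liver, so any hepatic response to it is indirect. The liver runs its own circadian clock, in which the activators Clock, Npas2 and Arntl drive the genes of their own repressors, the Per, Cry and Rev-erb (Nr1d1, Nr1d2) families. The output factors Tef and Hlf, and their competitor Nfil3, pass that rhythm on to genes of sterol, lipid, amino acid and xenobiotic metabolism, many of which are also set by feeding.

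The arrays measured total RNA from whole liver as log2 values after robust multi-array averaging (RMA), a summary of the probes of each transcript on a common scale. In these values a difference of 1 is a doubling. The median value of an array lay between 5.12 and 5.31 in ZnO + UVR and between 5.15 and 5.32 in ZnO-UVR. The slope of each array on the mean of all arrays averaged 1.02 ± 0.024 in ZnO + UVR and 1.02 ± 0.034 in ZnO-UVR (SD, n = 5 and 6; exact two-sided permutation p = 0.786). Hepatocyte markers were high in every liver, with a mean level over 7 measured genes between 12.23 and 12.42 in ZnO + UVR and between 12.18 and 12.50 in ZnO-UVR. No marker of any of the 12 other cell types and tissues checked differed at an unadjusted p under 0.05. One ZnO-UVR liver, replicate 4, stood apart in the red cell marker Slc4a1 and the macrophage markers, as given further on.

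Between ZnO + UVR and ZnO-UVR, limma called 0 transcripts (0% of those tested) at an adjusted p under 0.1. The transcripts tested were only part of those the paper counts on this array. The smallest adjusted p was 0.799. An unadjusted p under 0.05 was reached by 215 transcripts, 2.19% of those tested, with 99 higher (1.01%) and 116 lower (1.18%) in ZnO + UVR. In this fit that share is below the 0.05 that the threshold would pass with no difference anywhere. The same fit called 5 transcripts (0.0509%) for UVR without sunscreen, with 1260 (12.8%) under the unadjusted threshold, 64 (0.652%) for UVR under TiO2, with 653 (6.65%), and 0 (0%) for UVR under the organic product, with 333 (3.39%). The median log2 difference over all transcripts was 0.00, only 7 transcripts differed by more than 1 in either direction, and 71 by more than 0.5. The 95% interval of a difference reached a median of 0.31 to each side on the log2 scale. That width is for a single transcript before adjustment for multiple tests. Differences as large as 1.44 were not called, so changes well above 0.31 could go undetected. With arrays weighted by their residual spread 6 transcripts were called, Eci3, A1bg, Igfbp1 and Dhx58 higher and Hmcn1 and Ildr2 lower. A fit of these 11 arrays alone called 1 transcript, Hmcn1. An unadjusted p under 0.05 was reached by 754 transcripts with weighted arrays and by 508 in the fit of 11 arrays. The low share of 2.19% therefore depended on the fit.

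**Figure D1:**
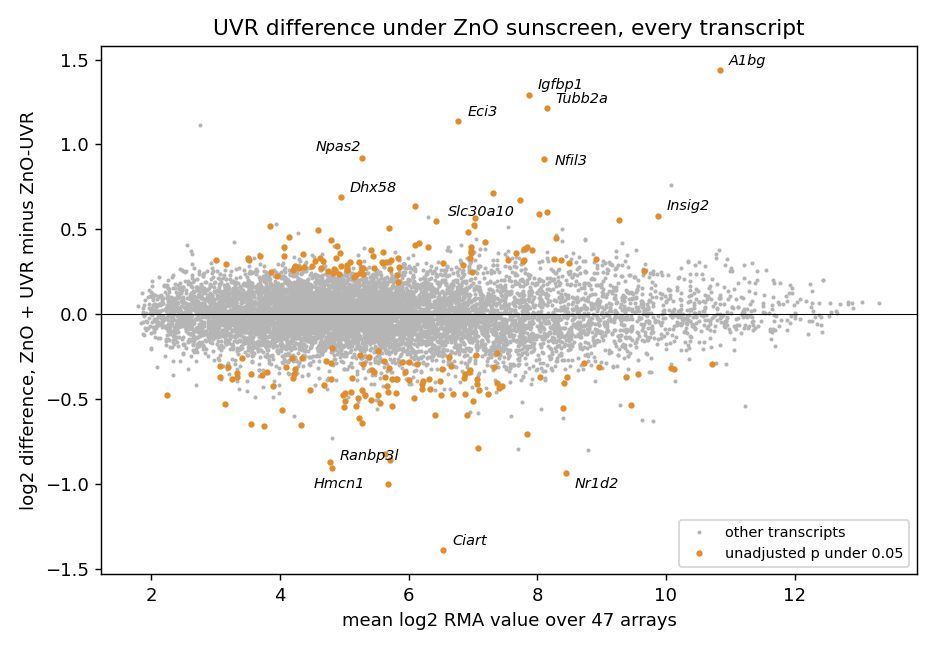
Each point is 1 of 9815 transcripts, with its mean log2 RMA value over the 47 arrays on the x axis and its log2 difference, ZnO + UVR minus ZnO-UVR, on the y axis. The points at an unadjusted p under 0.05 (orange, 215) lie on both sides of 0, from 1.44 for A1bg to -1.39 for Ciart, and none passed the adjusted threshold.

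Eci3, which had the smallest p of the transcripts that lay higher in ZnO + UVR, encodes an enoyl-CoA isomerase of fatty acid oxidation. It stood at 7.66, 7.56, 6.43, 6.72 and 7.52 in ZnO + UVR replicates 1 to 5, against 4.80, 5.62, 6.14, 6.39, 6.88 and 6.94 in ZnO-UVR replicates 1 to 6. The groups overlapped, and ZnO-UVR replicates 1 and 2 were the lowest of the 11 livers. The log2 difference was 1.14 (SE 0.28, 95% interval 0.56 to 1.71, limma adjusted p = 0.799). Among 12 measured genes of PPAR alpha and fatty acid oxidation, Eci3 was the only gene at an unadjusted p under 0.05, and the list median was -0.09.

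A1bg, which encodes a plasma glycoprotein, had the largest difference in the comparison. It stood at 11.57, 11.70, 10.12, 11.60 and 11.84 in ZnO + UVR, against 7.78, 9.23, 10.23, 10.42, 11.31 and 11.06 in ZnO-UVR. ZnO + UVR replicate 3 lay below 4 of the ZnO-UVR livers, and ZnO-UVR replicate 1 lay far below every other liver. The log2 difference of 1.44 (SE 0.37, adjusted p = 0.799) was 0.83 when ZnO-UVR replicates 1 and 2 were left out, a choice made after the values were seen.

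Igfbp1, a secreted binding protein for insulin-like growth factors that insulin represses and fasting induces in liver, separated the groups completely. Its values were 8.79, 8.15, 8.09, 8.71 and 9.15 in ZnO + UVR, against 7.19, 7.10, 7.95, 7.75, 6.84 and 7.42 in ZnO-UVR. Its fitted log2 difference was 1.29 (SE 0.39, adjusted p = 1.00). Unlike Eci3, it did not hinge on ZnO-UVR replicates 1 and 2, being 1.28 without them. The difference was 0.93 among replicates numbered 1 to 3 and 1.77 among those numbered 4 to 6. The same UVR comparison in mice without sunscreen gave 1.11 (SE 0.36, adjusted p = 0.265), and the test of Igfbp1 between both differences gave 0.18 (95% interval -0.89 to 1.25). Under the TiO2 product the Igfbp1 difference had the opposite sign, and under the organic product its 95% interval included 0. The ZnO difference minus the mean of those was 1.68 with weighted arrays (SE 0.39, limma adjusted p = 0.0854). It was not called without weights. G6pc, the glucose-6-phosphatase gene that releases glucose from liver, averaged 10.90 ± 0.57 in ZnO + UVR and 10.19 ± 0.55 in ZnO-UVR (SD), a log2 difference of 0.76 (SE 0.47). Of 8 measured genes of glucose output and glycogen only Igfbp1 was at an unadjusted p under 0.05, and the median of the 8 was 0.13.

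Dhx58 (LGP2), a cytoplasmic sensor of viral RNA, also separated the groups. It stood at 5.38, 5.30, 5.42, 5.66 and 5.18 in ZnO + UVR, against 4.64, 4.23, 4.98, 5.02, 4.75 and 4.78 in ZnO-UVR. The lowest ZnO + UVR liver was above the highest ZnO-UVR liver, by a small margin. The log2 difference of 0.69 (SE 0.18, adjusted p = 0.799) was 0.60 without ZnO-UVR replicates 1 and 2 and 0.63 among replicates numbered 4 to 6. The 10 measured interferon response genes, a list that did not hold Dhx58, had a median log2 difference of 0.26, with 7 above 0 and 3 below, and none at an unadjusted p under 0.05. In that list Rtp4, an interferon-induced chaperone, was at 0.33 and Irf9, part of the interferon-activated transcription complex, at 0.27.

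In the tubulin list, Tubb2a, a beta tubulin of microtubules, had values of 8.54, 8.99, 9.72, 9.33 and 9.70 in ZnO + UVR, against 5.76, 6.67, 8.72, 8.97, 9.30 and 9.06 in ZnO-UVR. ZnO-UVR replicates 1 and 2 were again the lowest, while the other 4 ZnO-UVR livers overlapped with ZnO + UVR. The log2 difference was 1.21 (SE 0.37, adjusted p = 1.00), and 0.37 without those 2 livers. Tuba1a, an alpha tubulin, was at 0.39, and 5 of 6 measured tubulin and stathmin genes lay above 0 (median 0.24), with 2 at an unadjusted p under 0.05.

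**Figure D2:**
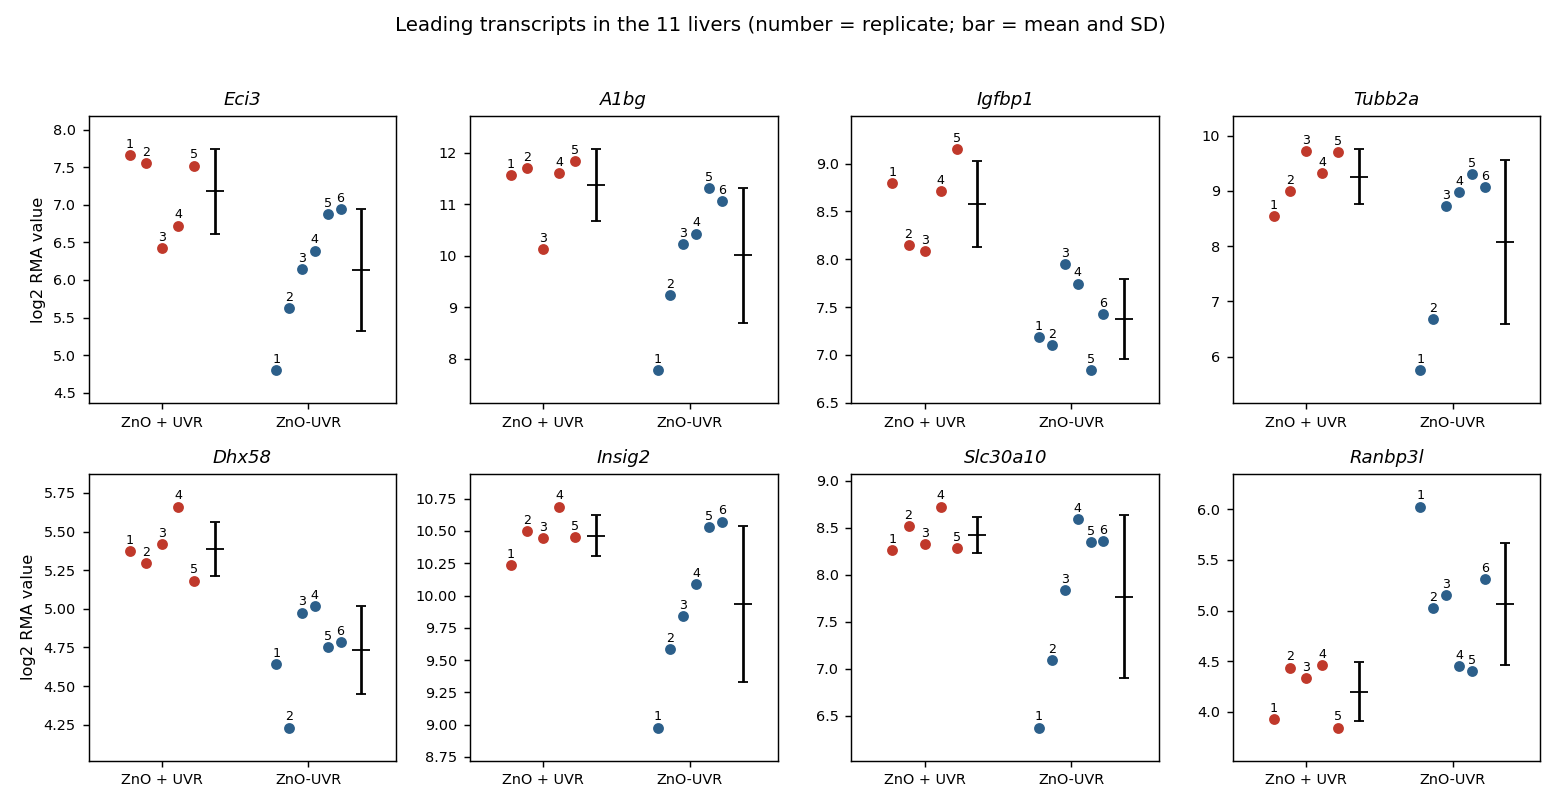
Log2 RMA values of 8 transcripts in each of 5 ZnO + UVR livers (left, red) and 6 ZnO-UVR livers (right, blue), numbered by replicate, with the mean and SD of each group in black. Igfbp1 and Dhx58 do not overlap between groups, whereas Eci3, A1bg, Tubb2a, Insig2 and Slc30a10 are lowest in ZnO-UVR replicates 1 and 2.

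Among transcripts lower in ZnO + UVR, the smallest p in the whole comparison was that of a transcript of Hmcn1, a very large extracellular matrix protein. It stood at 3.90, 4.49, 5.15, 4.42 and 4.26 in ZnO + UVR, against 4.91, 5.85, 5.73, 5.18, 5.31 and 4.74 in ZnO-UVR. The groups overlapped, and the log2 difference was -0.91 (SE 0.22, adjusted p = 0.799). Hmcn1 was read by 77 transcripts on this array. The other 76 had a median of -0.06 and ran between -0.57 and 0.43, so the named transcript did not stand for the gene. The same held for Lpp, a focal adhesion protein (named transcript -0.61, the other 2 at 0.02 and 0.15), and for Gpatch8 (-0.50, the other 4 at a median of -0.03).

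Other transcripts on the lower side were each read once. Ranbp3l, a nuclear export cofactor, averaged 4.20 ± 0.29 in ZnO + UVR and 5.06 ± 0.60 in ZnO-UVR (SD), with a log2 difference of -0.87. Ncam2, a neural cell adhesion molecule, was at -0.86 and Ildr2, a receptor of the immunoglobulin family, at -0.54. Sccpdh (-0.48), Prkar2b, a regulatory subunit of protein kinase A (-0.43), and Sav1, a scaffold of the Hippo pathway (-0.34), followed. Among these only Sav1 did not overlap between groups, at 6.61 to 6.86 in ZnO + UVR and 6.87 to 7.41 in ZnO-UVR. On the higher side, beside the genes above, Hapln1, a link protein of the matrix (0.52), Gas1, a growth arrest gene (0.36), and an olfactory receptor gene, Olfr322 (0.31), separated the groups. Liver does not use olfactory receptors, and over all 213 olfactory receptor genes measured the median was -0.01, with 2 at an unadjusted p under 0.05.

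Over all transcripts, 21 of 9815 did not overlap between the groups (0.214%), 12 higher (0.122%) and 9 lower (0.0917%) in ZnO + UVR. The ZnO arrays can be split into groups of these sizes in only 462 ways, so some transcripts separate fully by chance alone. Separation by itself therefore singles out no gene. Both transcripts of Bnip3l, a mitochondrial receptor for autophagy, were among the 9, at -0.32 and -0.30, a pair singled out after the values were seen. Their gene name rests on the platform annotation, since 19 of 20 neighbours by number lay on chromosome 12 and RefSeq places Bnip3l on chromosome 14. Of the 24 transcripts with the smallest p, 12 on each side, all 24 kept their direction among replicates numbered 1 to 3 and among those numbered 4 to 6. The median size of their difference was 0.76 among numbers 1 to 3 and 0.44 among numbers 4 to 6. The numbers were split there because arrays numbered 1 to 3, and likewise 4 to 6, deviated together, and the 24 transcripts were chosen on all of these arrays, so the direction is no independent support.

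Clock genes held the most members with a small p of the lists examined, although none passed the adjusted threshold. Of 12 measured clock genes, 8 were at an unadjusted p under 0.05, against 2.19% of all transcripts. Of 6 listed activators only Npas2 was measured, and of 16 listed repressors and output genes 11 were. The activator Npas2 and the output repressor Nfil3 lay higher in ZnO + UVR, and Ciart, Nr1d2, Tef, Hlf, Per1 and Per2 lay lower. The 11 genes of the repressor and output list had a median log2 difference of -0.46.

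The regulatory elements through which clock proteins act are short, and the promoters of 4 members show where they lie in the genes described next. The sequences are from RefSeq (GRCm38.p6), each running 5' to 3' on the strand of the gene, with 250 bases before and 50 after an annotated start. Capitals mark an exact match on either strand to the E-box CACGTG, bound by Clock or Npas2 with Arntl, or to a response element of Rev-erb and ROR proteins, TAGGTCA or TGGGTCA. The promoter of Ciart (chr3:95882179-95882478, minus strand) holds 3 E-boxes, that of Tef (chr15:81811164-81811463, plus strand) 1, that of Per1 (chr11:69098699-69098998, plus strand) 1, and that of Nfil3 (chr13:52980990-52981289, minus strand) 1 response element, which begins 12 bases before the start and is read on the other strand (TGACCTA as printed):
Ciart: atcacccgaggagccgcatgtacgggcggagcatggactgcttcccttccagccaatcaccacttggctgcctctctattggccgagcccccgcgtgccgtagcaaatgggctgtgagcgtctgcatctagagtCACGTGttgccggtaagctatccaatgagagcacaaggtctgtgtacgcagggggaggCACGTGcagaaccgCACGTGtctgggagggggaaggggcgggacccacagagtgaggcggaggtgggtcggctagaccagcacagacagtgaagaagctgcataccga
Tef: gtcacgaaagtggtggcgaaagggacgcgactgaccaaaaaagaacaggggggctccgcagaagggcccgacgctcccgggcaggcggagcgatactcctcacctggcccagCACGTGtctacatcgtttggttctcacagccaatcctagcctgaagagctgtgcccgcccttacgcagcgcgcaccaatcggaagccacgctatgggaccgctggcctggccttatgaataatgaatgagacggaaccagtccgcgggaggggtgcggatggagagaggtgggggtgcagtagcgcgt
Per1: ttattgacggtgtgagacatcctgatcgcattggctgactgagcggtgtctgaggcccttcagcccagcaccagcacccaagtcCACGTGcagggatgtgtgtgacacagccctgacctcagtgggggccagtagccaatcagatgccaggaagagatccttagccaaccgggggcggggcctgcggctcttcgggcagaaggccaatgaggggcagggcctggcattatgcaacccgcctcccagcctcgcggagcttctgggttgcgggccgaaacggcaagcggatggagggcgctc
Nfil3: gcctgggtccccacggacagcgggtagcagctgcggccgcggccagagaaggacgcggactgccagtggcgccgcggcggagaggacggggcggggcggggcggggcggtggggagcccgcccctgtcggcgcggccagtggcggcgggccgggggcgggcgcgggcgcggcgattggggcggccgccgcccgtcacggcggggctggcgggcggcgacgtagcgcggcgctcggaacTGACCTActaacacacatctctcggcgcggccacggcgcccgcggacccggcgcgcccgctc
Of 32851 such promoters of 300 bases, 7.15% hold the E-box and 6.45% one of the 2 response elements. Another annotated promoter of Tef also holds 1 E-box, and another of Per1 none. A D-box, TTATGTAA or TTACGTAA, which Tef, Hlf and Nfil3 bind, occurs in 1.06% of promoters and in none of these. The windows of Nr1d2, Hlf and Npas2 held no match to any of these letters.

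Npas2, the activator, stood at 6.37, 6.48, 6.78, 6.93 and 6.62 in ZnO + UVR, against 4.39, 4.02, 6.04, 6.70, 6.56 and 7.00 in ZnO-UVR. ZnO-UVR replicates 1 and 2 lay well below every other liver, ZnO-UVR replicate 3 lay slightly below ZnO + UVR, and the other 3 overlapped with it. ZnO + UVR minus ZnO-UVR came to 0.92 (SE 0.40, unadjusted p = 0.0281, adjusted p = 1.00). Without those 2 livers, which were picked on values such as these, it was 0.21.

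Ciart, a repressor of the Clock and Arntl pair with the 3 E-boxes shown above, was the mirror image. It stood at 4.31, 5.01, 4.94, 5.79 and 5.80 in ZnO + UVR, against 9.04, 8.53, 4.87, 5.60, 5.48 and 5.64 in ZnO-UVR. The same 2 livers were high, and the other 9 shared one range. The log2 difference was -1.39 (SE 0.57, adjusted p = 1.00), but -0.29 without those livers and 0.19, with the sign turned, among replicates numbered 4 to 6. The name Ciart rests on the platform annotation. Transcripts are numbered largely in chromosome order on this array, and 19 of 20 neighbours by number lay on chromosome 10, whereas RefSeq places Ciart on chromosome 3.

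Nr1d2, which encodes Rev-erb beta, a repressor that binds the response elements given above, separated the groups. Its values were 7.88, 7.89, 7.15, 7.50 and 7.78 in ZnO + UVR, against 9.27, 9.40, 8.38, 7.97, 8.09 and 8.24 in ZnO-UVR. Every ZnO + UVR liver was below every ZnO-UVR liver, and ZnO-UVR replicates 1 and 2 were the highest. The fitted log2 difference came to -0.94 (SE 0.29, 95% interval -1.52 to -0.36, adjusted p = 1.00), and -0.53 without those livers. Its close relative Nr1d1, Rev-erb alpha, varied widely within both groups, from 7.22 to 9.36 in ZnO + UVR and from 7.91 to 9.83 in ZnO-UVR, with a log2 difference of -0.80 (SE 0.60).

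Nfil3, a repressor at D-boxes, stood at 8.54, 8.85, 8.54, 9.34 and 9.33 in ZnO + UVR, against 7.16, 7.11, 8.15, 8.59, 8.64 and 8.80 in ZnO-UVR. ZnO-UVR replicates 1 and 2 were lowest, replicate 3 was also below ZnO + UVR, and the other 3 overlapped with it. The log2 difference was 0.91 (SE 0.27, adjusted p = 1.00), and 0.57 without the 2 livers.

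The D-box activators ran opposite to Nfil3. Hlf stood at 6.77, 6.95, 6.81, 6.92 and 6.92 in ZnO + UVR, against 7.84, 7.81, 7.17, 6.99, 7.05 and 7.14 in ZnO-UVR, with no overlap and a log2 difference of -0.47 (SE 0.17). Tef stood at 5.93, 5.71, 5.64, 5.98 and 5.72 in ZnO + UVR, against 7.13, 6.91, 5.92, 6.17, 6.23 and 5.84 in ZnO-UVR, with a log2 difference of -0.59 (SE 0.22). In both genes ZnO-UVR replicates 1 and 2 stood above all other livers by more than the spread of the rest. Leaving them out brought the difference to -0.24 for Hlf and -0.26 for Tef.

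The period genes, negative arm of the clock, followed the same 2 livers. Per1 was at 6.54 and 6.28 in ZnO-UVR replicates 1 and 2 and between 4.82 and 5.59 in the other ZnO-UVR livers, and ZnO + UVR ran from 5.08 to 5.37. Its log2 difference was -0.46 (SE 0.20), and -0.12 without those livers. Per2 was at -0.42 (SE 0.18), and -0.21 without them. Cry1, a cryptochrome repressor, was at 0.23 (SE 0.33), and the casein kinase genes Csnk1d (0.06) and Csnk1e (0.11), which mark period proteins for turnover, lay near 0. Leaving out ZnO-UVR replicates 1 and 2 kept the direction of all 12 clock genes, with 0 of 12 at an unadjusted p under 0.05 and a median size of 0.25, against 0.53 with all arrays. Both livers were picked on these same clock values, so a smaller size without them was built in. Among replicates numbered 4 to 6, where neither group held such a liver, 9 of 12 kept their direction, 0 were at an unadjusted p under 0.05 and the median size was 0.16.

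**Figure D3:**
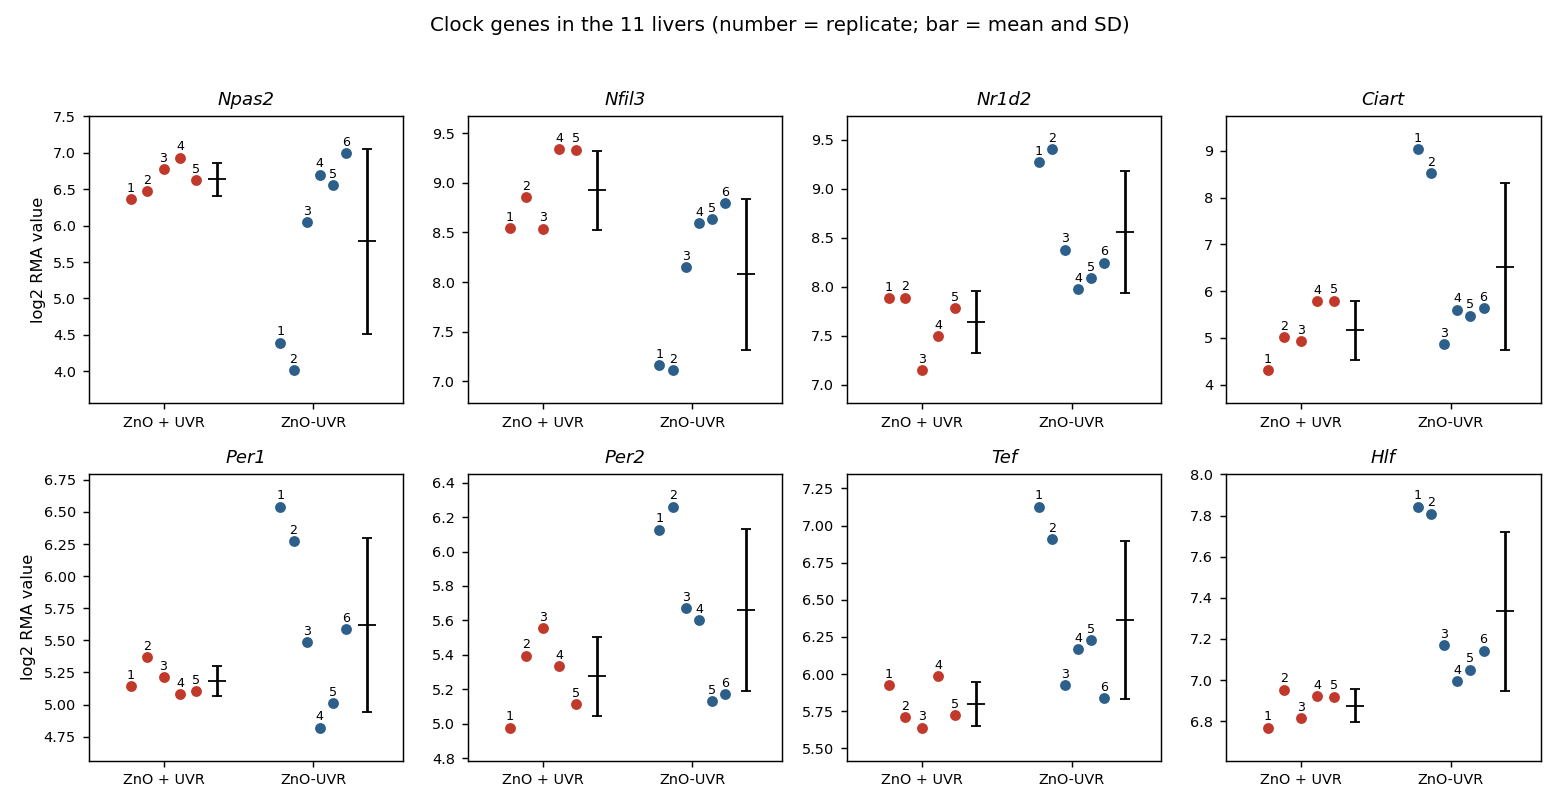
Log2 RMA values of 8 clock genes in each of 5 ZnO + UVR livers (left, red) and 6 ZnO-UVR livers (right, blue), numbered by replicate, with the mean and SD of each group in black. ZnO-UVR replicates 1 and 2 are lowest in Npas2 (4.39 and 4.02) and Nfil3 and highest in the other 6 genes, while the remaining ZnO-UVR livers lie near the ZnO + UVR livers.

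Low Npas2 with high Ciart was also seen in other groups. Npas2 averaged 4.15 in TiO2 + UVR, 4.16 in Organic + UVR and 4.14 in Organic-UVR, and single livers of Control-UVR and TiO2-UVR went down to 4.12 and 4.63. Over all 47 livers Npas2 and Ciart had a Pearson's r of -0.80 and a Spearman's rho of -0.77, as a description of arrays that share groups and hybridisation batches. Among the 11 ZnO livers the Pearson's r was -0.86 and the Spearman's rho -0.08, so that the relation there rested on the 2 livers.

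**Figure D4:**
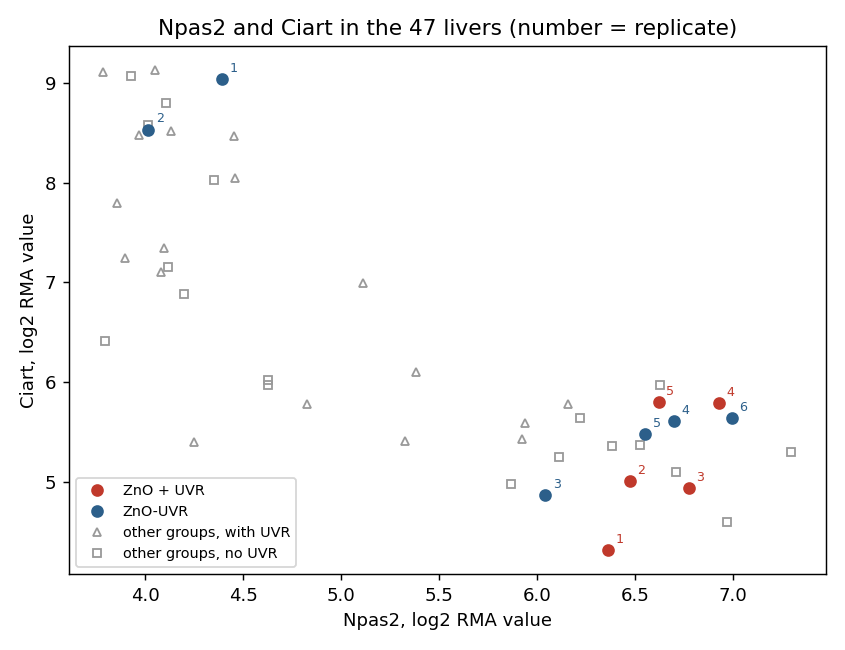
Npas2 (x axis) against Ciart (y axis), both as log2 RMA values, in the 47 livers, with ZnO + UVR in red and ZnO-UVR in blue, numbered by replicate, and other groups in grey outline. ZnO-UVR replicates 1 and 2 (Npas2 4.39 and 4.02) lie among livers of other groups at the upper left, and the other 9 ZnO livers have Npas2 of 6.04 or above.

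The zinc and manganese transporter list concerns the metal in the sunscreen, which both groups wore, so the comparison does not test zinc exposure. Of 29 listed genes 12 were measured, 1 was at an unadjusted p under 0.05 and the median was 0.03. That gene was Slc30a10, a member of the zinc transporter family that exports manganese from liver cells. It stood at 8.27, 8.52, 8.33, 8.73 and 8.28 in ZnO + UVR, against 6.37, 7.09, 7.84, 8.59, 8.34 and 8.36 in ZnO-UVR. ZnO-UVR replicates 1, 2 and 3 were below every ZnO + UVR liver, and the other ZnO-UVR livers overlapped with ZnO + UVR. Its fitted log2 difference was 0.67 (SE 0.23, adjusted p = 1.00), and 0.18 without replicates 1 and 2. The other 11 transporters ran between -0.26 for Slc30a5, which carries zinc into the secretory pathway, and 0.21 for Slc39a4, a zinc importer.

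In the sterol list, Insig2, which retains the sterol-sensing complex in the endoplasmic reticulum and so restrains cholesterol synthesis, stood at 10.24, 10.50, 10.44, 10.69 and 10.45 in ZnO + UVR, against 8.98, 9.59, 9.84, 10.09, 10.53 and 10.57 in ZnO-UVR. The groups overlapped, with ZnO-UVR replicates 1 and 2 lowest. ZnO + UVR minus ZnO-UVR came to 0.58 (SE 0.18, adjusted p = 1.00), and 0.37 without those livers. The other 7 sterol genes measured were not at an unadjusted p under 0.05, and the median of the 8 was 0.15. Ddc, the decarboxylase that makes dopamine and serotonin, had the smallest p of 18 amino acid and urea genes, with a log2 difference of 0.60 (SE 0.25), and 0.21 without ZnO-UVR replicates 1 and 2. Bhmt, which remethylates homocysteine, was at 0.30.

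Measured members of lists that bear on UVR injury showed little difference, but each list was measured only in part. Measured were 14 of 35 listed genes for break rejoining and nucleotide excision, 13 of 27 for p53 and 8 of 29 for BRCA1 and Fanconi. For immediate early genes 15 of 27 were measured, and for NF-kB targets and cytokines 14 of 35. Of 14 measured genes of break rejoining and nucleotide excision, 1 was at an unadjusted p under 0.05, the translesion polymerase gene Polk at -0.28, and the median was -0.06. The 13 p53 genes, which include Polk, had a median of -0.02, the 8 BRCA1 and Fanconi genes 0.00 and the 15 immediate early genes 0.03, with no other member at an unadjusted p under 0.05. Of 14 genes of NF-kB targets and cytokines, Il1r1, the receptor for interleukin-1, was at -0.55 and the chemokine gene Ccl3 at -0.38, both at an unadjusted p under 0.05, with a list median of 0.02. ZnO-UVR replicates 1 and 2 were the highest livers for Il1r1 (9.38 and 9.61), and without them its difference was -0.14 and that of Ccl3 -0.55. In the vitamin D and steroid list 0 of 7 genes reached that level. Respiratory chain genes lay slightly above 0, 21 of 27, with a median of 0.11, as did 17 of 20 proteasome genes (0.13) and 14 of 16 heat shock and ER stress genes (0.18). Of those 3 lists, 2 genes were at an unadjusted p under 0.05, Ndufs6 (0.32) and Cox5b (0.25), both respiratory chain subunits.

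One ZnO-UVR liver stood high in 1 red cell gene and in the macrophage markers. Slc4a1, the anion exchanger of red cells and the only one of 13 red cell markers measured, was between 5.20 and 5.44 in ZnO + UVR, against 8.16 in ZnO-UVR replicate 4 and 5.09 to 5.29 in the other ZnO-UVR livers. The mean level of 4 measured macrophage markers ran from 6.60 to 7.52 in ZnO + UVR, and was 8.50 in ZnO-UVR replicate 4 and 6.47 to 6.93 in the other ZnO-UVR livers. ZnO-UVR replicate 4 also had the highest mean of sinusoidal endothelial markers among the ZnO livers, 6.84. Its neutrophil mean, 4.99, was above every ZnO + UVR liver (at most 4.70) and below only ZnO-UVR replicate 2 (5.09). Its B and plasma cell mean, 4.78, was below only ZnO + UVR replicate 3 (4.89). Its T and NK cell mean, 4.44, lay within the range of the other ZnO livers. In whole liver, more cells of a type and more RNA per cell cannot be told apart. Without that array limma again called 0 transcripts, with 272 at an unadjusted p under 0.05.

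Whether the UVR difference under ZnO sunscreen was itself different elsewhere was tested against the UVR difference in mice without sunscreen, with no shared arrays. limma called 0 transcripts (0%), with 372 (3.79%) at an unadjusted p under 0.05. The smallest p belonged to Gm11437, an unstudied transcript, with 0.59 under ZnO and -0.52 without sunscreen, a difference of 1.11 (SE 0.27, adjusted p = 0.701), and to Rtp4, with 0.33 under ZnO and -0.87 without sunscreen, a difference of 1.21 (SE 0.30, adjusted p = 0.701). Dhx58 followed, at 0.69 under ZnO and -0.28 without sunscreen, then the splicing factor gene Cwc27 and the DNA primase gene Prim1. With weighted arrays 4 transcripts were called, Gm11437, Rtp4, Dhx58 and 1 with no gene name.

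Against the mean UVR difference under the TiO2 and organic products, 4 transcripts were called (0.0408%), 3 higher (0.0306%) and 1 lower (0.0102%), and 386 (3.93%) were under the unadjusted threshold. Nr1d2 was at -0.94 under ZnO, against 1.72 under TiO2 and 0.04 under the organic product, a difference of -1.81 (SE 0.35, adjusted p = 0.0466). Nfil3 was at 0.91 under ZnO, against -1.39 under TiO2 and 0.01 under the organic product, a difference of 1.61 (SE 0.33, adjusted p = 0.0530). In all 4 genes the TiO2 difference had the opposite sign to the ZnO difference and was larger in size, and it passed limma's test on its own, which the ZnO difference did not. Slc30a10 was at 0.67 under ZnO, against -1.49 under TiO2 and 0.07 under the organic product, a difference of 1.38 (SE 0.28, adjusted p = 0.0530). Insig2 was at 0.58 under ZnO, against -1.22 under TiO2 and 0.26 under the organic product, a difference of 1.06 (SE 0.22, adjusted p = 0.0562). Dhx58, with the next smallest p, had 0.69 under ZnO, against -0.32 under TiO2 and -0.22 under the organic product, a difference of 0.96 (SE 0.22, adjusted p = 0.128).

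These 4 calls were sensitive to single mice. Without ZnO-UVR replicate 1 or 2, 0 were called, with a smallest limma adjusted p of 0.253 and 0.227. Without ZnO + UVR replicate 2 or 4, 0 were called too, but the smallest limma adjusted p, 0.112 and 0.105, lay just over the threshold. One was called without ZnO + UVR replicate 1 or Organic + UVR replicate 4, 2 without ZnO-UVR replicate 3 or Organic-UVR replicate 6, 7 without ZnO + UVR replicate 3, TiO2-UVR replicate 2 or Organic-UVR replicate 1, 9 without ZnO-UVR replicate 5 and 10 without ZnO-UVR replicate 6. With ZnO-UVR replicates 1 and 2 both left out 0 were called, and the differences were -1.41 for Nr1d2, 1.26 for Nfil3, 0.89 for Slc30a10 and 0.85 for Insig2.

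**Figure D5:**
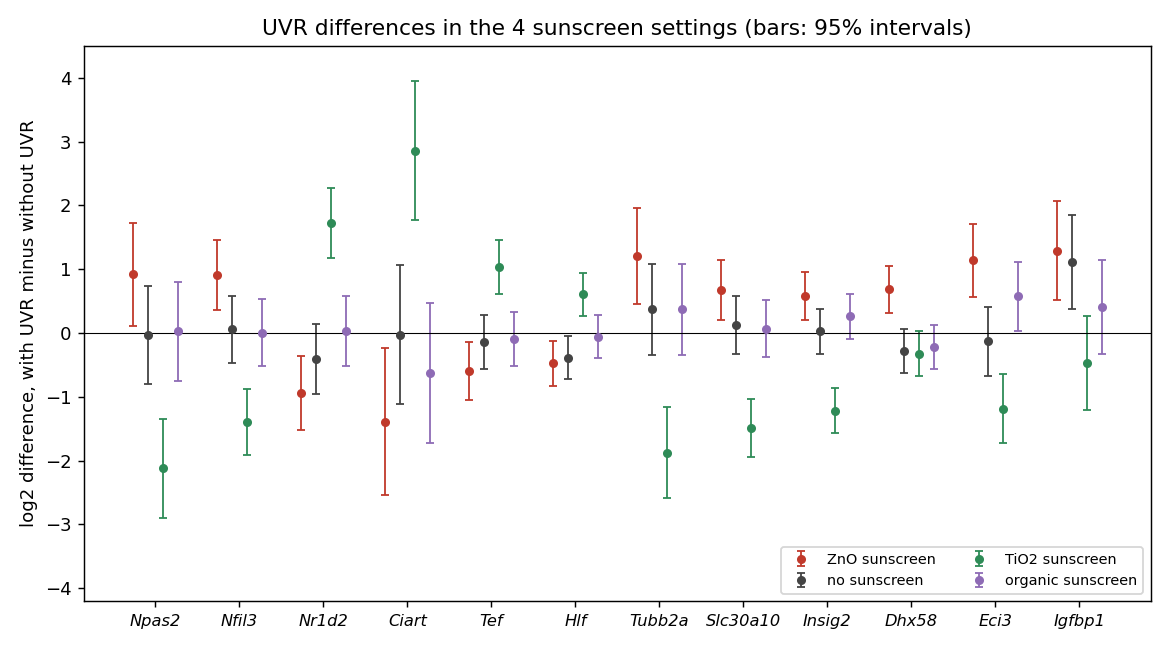
Log2 difference with UVR minus without UVR, with its 95% interval, for 12 genes under ZnO sunscreen (red), without sunscreen (black), under TiO2 sunscreen (green) and under organic sunscreen (purple). The ZnO and TiO2 points lie on opposite sides of 0 in every gene shown, for example -0.94 and 1.72 for Nr1d2, while the intervals without sunscreen (except Hlf and Igfbp1) and under organic sunscreen (except Eci3) include 0.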

How the data were processed

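Total liver RNA was hybridised to Affymetrix Mouse Gene 1.0 ST arrays. The authors normalised the arrays by RMA, and the deposited values are log2 intensities. Chips were run in batches that each held 1 chip of a group, and the authors removed batch effects, but whether before deposit is not stated. Of 16383 probesets, 6568 controls were left out and 9815 transcripts were tested, of which 7450 had 1 gene symbol in the platform annotation (7421 matched to RefSeq). The paper counts far more gene transcripts on this array. Neighbours by number of the named genes checked lay mostly on chromosomes 1 and 10 to 16. Counts and gene lists here therefore do not cover the whole array. All 47 arrays were fitted with limma 3.58.1 (R 4.3.3), with group and replicate number as terms, so a log2 difference can depart slightly from the difference of group means. P-values were adjusted by Benjamini-Hochberg over all transcripts, called under 0.1, two-sided. The number of arrays limits the precision. The fit was tested on simulated data. Array slopes were compared by exact permutation (scipy 1.17.1). Genes were named by rule: the 12 smallest p on each side, the top 2 of each list, all clock and metal transporter genes, and the 5 smallest p of each contrast between UVR differences. A gene of several transcripts was listed by its brightest. Members, lists and rules were chosen with earlier results of these data known. Alternatives covered the replicate block, arrays fitted, weights, normalisation, dim transcripts, threshold, moderation, adjustment, transcripts per gene, array slope and each array left out.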

Additional observations from a re-analysis of the deposited data

Results flagged for a closer look

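Single livers lay far from the rest of their group by Dixon's criterion in 11 of 118 groups of values examined. The nominal rate of that criterion is about 1 in 20. The genes were partly chosen on these values and the same livers recur, so an excess over that rate was not tested. In ZnO + UVR the lowest liver stood apart in A1bg (replicate 3, 10.12), G6pc (replicate 3, 9.90) and Bhmt (replicate 4, 8.53), and the highest in Cd68 (replicate 3, 7.56) and Cnih1 (replicate 1, 9.43). In ZnO-UVR, replicate 4 was low in Cadps (3.28) and Gas1 (6.56) and high in Slc4a1 (8.16) and the macrophage gene Cd68 (8.84). ZnO-UVR replicate 1 was low in Sccpdh (5.20) and in Rtp4 (6.68). The pair of ZnO-UVR livers that stood apart in clock genes does not appear here, since a gap to the nearest value cannot mark 2 livers that lie together.

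The UVR difference under ZnO minus the mean of those under TiO2 and organic products passed limma's test for Nr1d2 (-1.81), Nfil3 (1.61), Slc30a10 (1.38) and Insig2 (1.06).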

How the results depend on the processing

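For UVR under ZnO sunscreen 0 transcripts were called with each array left out in turn and under the other alternatives, except 1 in a fit of the 11 arrays alone and 6 with array weights. For the contrast with mice without sunscreen the only calls were 4 with array weights. The contrast with the other sunscreens moved from 4 calls to 1 with no replicate block, 2 with only the groups compared, 11 with array weights, 1 at a threshold of 0.05, 0 without variance moderation and 13 with the array slope as covariate. It gave 3 among replicates numbered 1 to 3 (Slc30a10, one of the 4 genes, with Nckap5 and Asap2, which were not), 0 among those numbered 4 to 6 and 0 without ZnO-UVR replicates 1 and 2, all chosen after seeing the data, and 0 to 10 with single arrays left out.

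Same-numbered ZnO + UVR and ZnO-UVR arrays deviated together with correlations of 0.44, 0.01, 0.27, 0.44 and 0.35, so the number was not shown to pair mice. Without the replicate block 155 transcripts of the ZnO comparison were at an unadjusted p under 0.05, against 215 with it.

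Over 59 genes, 14 values turned sign: Ciart (0.19), Csnk1d (-0.11), Csnk1e (-0.14), Slc39a4 (-0.032), Tuba1a (-0.014), Rtp4 (-0.038) and Cwc27 (-0.15) among replicates numbered 4 to 6, Csnk1d without ZnO-UVR replicate 3 (-0.017) or ZnO + UVR replicate 1 (-0.052), Slc4a1 without ZnO-UVR replicate 4 (0.13) and among numbers 1 to 3 (0.15), Cd68 without ZnO-UVR replicate 4 (0.020), and Prim1 without ZnO-UVR replicate 1 (-0.018) or without replicates 1 and 2 (-0.073). With single arrays left out, Csnk1d ran from -0.052 to 0.16, Slc4a1 from -0.49 to 0.13, Cd68 from -0.43 to 0.020 and Prim1 from -0.018 to 0.29. The difference in array slope, -0.00485, was 0.000342 after quantile normalisation and -0.0140 to 0.00275 with single arrays left out. With 5 and 6 arrays, the 95% interval reached a median of 0.31 to each side before adjustment for multiple tests, so larger changes could also go undetected.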
